A study of Mus musculus with 14 samples.

Results

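The comparison is between mouse embryonic stem cells (ESCs) kept without auxin and the same ESCs after 48 h of auxin, which removes CTCF. It takes in 4 of the 14 samples of the series, 2 at 0 h and 2 at 48 h by their titles, and the labels alone chose them. All 4 come from F123, an established mouse ESC line, with CTCF fused to an auxin-inducible degron (CTCF-AID), so the controls carry the fusion as well. Auxin was given as 1 µl of a 500 mM solution for each ml of medium, renewed every 24 h. The cells grew with serum replacement and LIF, which keeps ESCs undifferentiated. The sources used here do not give how many clones of the degron line were used. Neither CTCF protein nor RNA is measured by the lists, so the extent of depletion was not measured here.

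H3K4me3 PLAC-seq joins DNA ends that lie close together in the nucleus and then pulls down fragments carrying trimethylated lysine 4 of histone H3, the mark of promoters. The result is a list of loops, here pairs of 10 kb bins whose contacts exceed the background computed by a caller, with an H3K4me3 peak in at least 1 of the pair. CTCF is a zinc finger protein that binds DNA in a given orientation and halts the cohesin ring as it reels in chromatin. A halted ring leaves a focal loop between CTCF sites, and an anchor that touches every stretch of DNA passing through the ring shows up as a stripe of adjacent contacts. Promoters also meet enhancers and other promoters, with or without a CTCF site nearby.

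Each group had 1 list from the caller MAPS and 1 from the caller FitHiChIP, although the titles give 2 samples. No difference therefore has a replicate check, no p-value is given, and the 95% intervals (exact Clopper-Pearson for shares) cover counting error only. The total contacts behind the FitHiChIP lists were 47519917 in control and 48307867 after auxin. The short-range reads that MAPS uses had a median of 307 and 374 per peak bin of both lists, a median log2 change of 0.28. MAPS called 56714 and 27610 loops, FitHiChIP 33475 and 22705. Unless FitHiChIP is named, values come from the MAPS lists, in which a loop has at least 12 contacts, at least 2.00 times the expected number and a false discovery rate (FDR) under 0.01. H3K4me3 peak bins with loops included 11 of 14 ESC marker genes, Pou5f1, Sox2, Nanog and Klf4 among them. They also included 7 of 8 neural and 6 of 7 mesoderm and endoderm markers, so the presence of the mark in these lists does not tell the cell types apart.

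Some promoters carry the CTCF core motif close to their start, and the side of their contacts (left to lower, right to higher coordinates) was compared with the strand of the core. The core was searched on both strands in the 300 bases around each start and found in 119 of 21262 RefSeq promoters (0.56%). The promoters below (RefSeq, GRCm38.p6, the assembly of mm10) are the 6 with the most control loops in their bin among those holding the core wholly upstream of the start. They are shown because the side and number of their contacts can be read beside the strand of the core. The core is in capitals, and each sequence runs 5′ to 3′ on the strand of its gene.
Cebpb, chr2:167688665-167688720, plus strand: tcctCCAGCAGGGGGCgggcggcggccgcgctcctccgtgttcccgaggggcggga
Hs1bp3, chr12:8313309-8313400, plus strand: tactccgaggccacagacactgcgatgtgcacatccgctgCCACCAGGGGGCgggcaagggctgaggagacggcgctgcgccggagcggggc
Rgs9, chr11:109298219-109298310, minus strand: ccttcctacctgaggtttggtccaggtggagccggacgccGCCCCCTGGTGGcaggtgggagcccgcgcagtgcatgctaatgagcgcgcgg
Actrt3, chr3:30599901-30599992, minus strand: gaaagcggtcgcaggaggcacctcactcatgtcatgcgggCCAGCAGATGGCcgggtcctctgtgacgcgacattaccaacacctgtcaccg
Dcaf17, chr2:71055494-71055559, plus strand: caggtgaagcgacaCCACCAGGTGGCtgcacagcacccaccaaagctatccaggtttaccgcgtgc
Pdzd9, chr7:120670297-120670388, minus strand: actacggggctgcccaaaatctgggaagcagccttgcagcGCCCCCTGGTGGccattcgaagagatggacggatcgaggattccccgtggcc

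Cebpb, a transcription factor of fat and myeloid cells, has the core on the plus strand of the genome. It held 1 control loop to the left (lower coordinates) and 14 to the right, and 0 and 5 after auxin. Hs1bp3, with the core on the plus strand, held 1 loop to the left and 10 to the right in control, and 7 to the right after auxin, 6 of them the same bin pairs. The bin of Pdzd9 and Mosmo, again with the core on the plus strand, held 1 loop to the left and 8 to the right in control, and 16 to the right after auxin, 3 of them the same. Rgs9, a regulator of G protein signalling in photoreceptors and striatum, with the core on the plus strand as well, held 11 loops, all to the right, and 2 to the right after auxin. These 4 bins kept the side of most of their loops. The bin of Dcaf17 and Mettl8 has the core on the plus strand but held 9 control loops to the left and 0 to the right, and 1 to the left after auxin. Actrt3, with the core on the minus strand, held 10 control loops, all to the right, and its 1 loop after auxin ran to the left. The control loops of the Dcaf17 bin thus ran to the side opposite to that of the other 4 bins. Those of Actrt3 ran to the same side as at these 4, with the core on the other strand. Loops were fewer after auxin at 5 of the 6.

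Over all promoter bins with the core on the plus strand only (35 bins), 70.4% of control loops ran to the right (62.5 to 77.5), and 78.3% (69.2 to 85.7) after auxin. With the core on the minus strand only (38 bins), 43.1% ran to the right in control (34.2 to 52.3) and 38.4% (27.2 to 50.5) after auxin. Bins without the core had 49.2% and 49.0%. The interval for the plus strand lies above the value without the core in both lists, and that for the minus strand includes it in both. The share of control loops called again was 33.6% (26.1 to 41.7) with the core on the plus strand, 21.1% (14.3 to 29.4) with it on the minus strand and 25.1% without it. This spelling of the core was chosen after 5 others had been looked at. For the plus strand these gave 50.3 to 60.1% to the right in control and 49.4 to 67.9% after auxin, and for the minus strand 16.2 to 46.8% and 19.2 to 44.8%. The lean at the plus strand therefore depends on the spelling. At the minus strand the share lay below that of bins without the core in each spelling and list, but not every interval excluded that value. A match is a description of letters and does not show that CTCF was bound.

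Contacts that were called in both conditions were mostly a little weaker after auxin. The same pair of bins was listed in 12979 cases, 22.9% of the control loops. The MAPS enrichment (contact count over expected count) of these shared loops fell from a median of 3.12 to 2.81. As log2 of auxin over control, the median change was -0.13, with quartiles of -0.41 and 0.08. The value was lower at 8443 loops (65.1%), and the median lay below 0 on 19 of 19 chromosomes, from -0.18 to -0.06. Loops at least 1.5-fold lower numbered 1871 (14.4%), and those at least 1.5-fold higher 238 (1.83%). Counts alone had a median change of -0.11 and the expected values one of 0.03. FitHiChIP gave -0.024 over 14509 shared loops, so the size of this shift rests on the caller.

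The shift differed little with distance, with medians from -0.15 (100 to under 200 kb) to -0.12 in each of the other 3 classes. It was smaller where promoters met promoters: -0.16 with no promoter bin at either anchor, -0.12 with 1 and -0.07 with 2. Among loops of 500 kb to 1 Mb between H3K4me3 peaks, 7.44% (of 497) were at least 1.5-fold higher and 16.1% at least 1.5-fold lower (median -0.08). With a peak at 1 anchor (561 loops) these shares were 1.96% and 18.4%. When the shared loops were divided into 5 equal classes by control FDR, the strongest had a median change of -0.56 and the weakest one of 0.13. This order is fixed in part by the listing itself, since a weak control loop is shared only where it stayed above the thresholds.

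**Figure D1:**
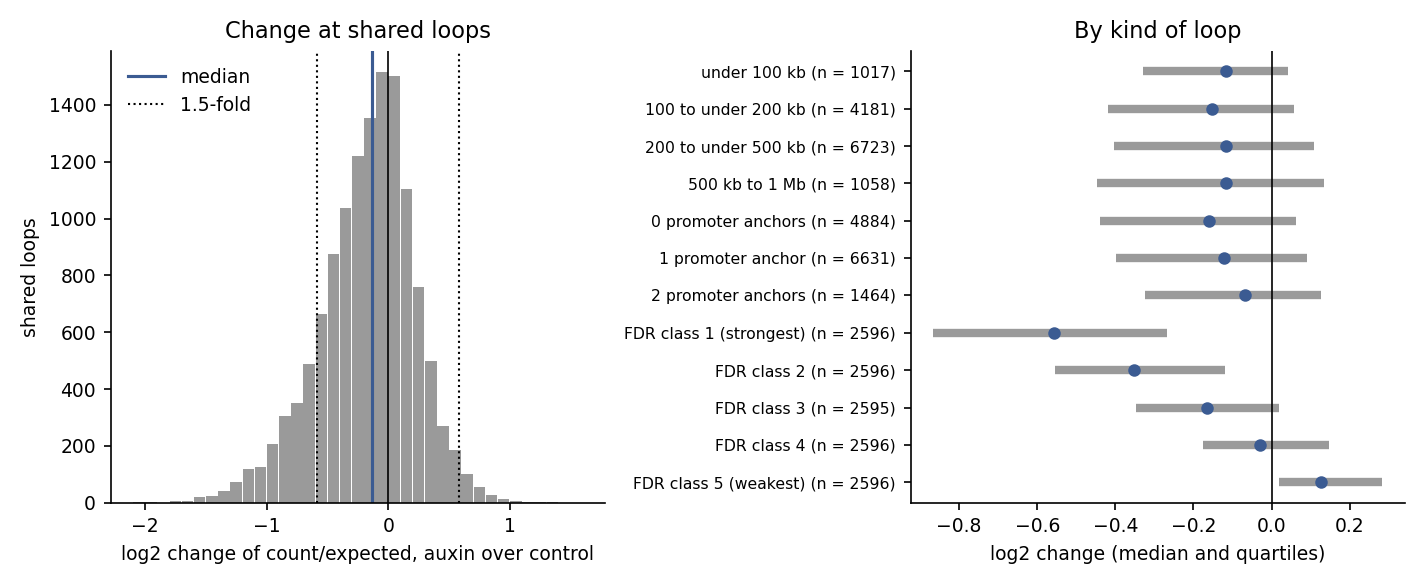
Left, number of shared loops by log2 change of count over expected (auxin over control), with the median (-0.13) and 1.5-fold lines. Right, median (point) and quartiles (bar) by distance, promoter anchors and FDR class of the control loop; the median moves from -0.56 in the strongest FDR class to 0.13 in the weakest.

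Named loops were the extremes among 6632 shared loops with a promoter bin and at least 20 contacts in each list, 1 per promoter bin, so their changes are descriptions. The loop of Faap20, a partner of the Fanconi anaemia repair complex, with a bin 150 kb to its left (chromosome 4, 155240001 to 155250000 for the promoter bin) had 141 contacts in control and 32 after auxin. That was 10.5 and 2.52 times the expected number, a log2 change of -2.05 with a counting interval of -2.66 to -1.49. Gadd45g, a stress-response gene, fell from 122 to 34 contacts with a bin 380 kb away. Wnt7a, a Wnt ligand, fell from 191 to 53 at 130 kb. FitHiChIP listed the Faap20 pair in control only, with 136 contacts.

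Ccnd1, which encodes cyclin D1, had 114 contacts in control and 32 after auxin with a bin 310 kb away, or 16.5 and 5.08 times the expected number. Cacna1i, a T-type calcium channel, had 57 and 22 contacts at 420 kb. Pcdha12, in the protocadherin alpha cluster where CTCF is known to guide promoter choice, had 82 and 28 at 190 kb. Fadd, Gprc5b, Adm and Gtf2ird2 complete the 10, with log2 changes from -1.64 to -1.53. FitHiChIP listed 6 of the 10 in both conditions, each with fewer contacts after auxin (Ccnd1 102 and 31, Wnt7a 180 and 51).

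The strongest gain was at Meis2, a homeobox cofactor of limb and brain development. Its loop with a bin 490 kb to the right had 31 contacts in control, 4.19 times the expected number, and 89 after auxin (log2 change of the enrichment 1.52, counting interval 0.91 to 2.16). FitHiChIP counted 38 and 100 for the same pair. Pax9, a paired-box factor of teeth and pharyngeal endoderm, had 49 and 92 contacts at 840 kb, reaching a bin next to Foxa1, a pioneer factor of endoderm. The Foxa1 bin itself gained contacts with Slc25a21, from 34 to 55. These last pairs lie in 1 region of chromosome 12 and are not separate observations.

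Several gains joined promoters to each other. Stat6, a cytokine signalling factor, and Hsd17b6, a steroid dehydrogenase, had 26 and 51 contacts at 360 kb. Mzt2, a microtubule nucleation protein, and Yars2, the mitochondrial tyrosyl-tRNA synthetase, had 20 and 44 at 440 kb. The bin of Cyb5d1, Naa38 and Tmem88 and that of Wrap53, needed for telomerase trafficking, had 44 and 72 at 180 kb. Of the 10 highest loops, 5 had a promoter bin at both anchors, against 0 of the 10 lowest. Among all shared loops, whatever their count, 1464 had a promoter bin at both anchors and 6631 at 1. Lbx1, Tmem106c, the bins of Sarm1 and Vtn, and of Ess2 and Gsc2 complete the 10 highest, each with a log2 change of 1.02 to 1.11. The loops of Stat6, and of Ess2 and Gsc2, had an H3K4me3 peak at 1 anchor only.

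The control loops called again were the stronger ones and those also found in other cells. Their median enrichment in control was 3.12, against 2.86 for the 43735 not called again. Neural precursor cells of day 4 from the same line, a separate set of libraries, listed 70.4% of the former and 44.4% of the latter without auxin. In precursors differentiated with auxin the shares were 51.3% and 15.6%. The 14631 loops listed only after auxin were found in 26.2% of cases in precursors without auxin and in 25.8% with it. The precursor list without auxin held 82861 loops, and that with auxin 41667. The shares were not adjusted for this length, so they can be compared within a precursor list but not directly between the lists. H3K4me3 peaks stood at both anchors of 37.7% of the loops called again, 23.0% of those not called again and 34.8% of those listed only after auxin.

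Loops listed only after auxin passed over more promoters. In the class of 200 to under 500 kb they spanned a mean of 2.95 promoter bins with an H3K4me3 peak (SD 3.09 over loops), against 2.22 (SD 2.47) for control loops not called again and 2.12 for those called again. The mean was higher than that of the control loops not called again on 16 of 19 chromosomes. Median distances were alike, 300 kb and 290 kb. Between 500 kb and 1 Mb the means were 3.86 and 2.47, with 17 of 19 chromosomes higher. Under 100 kb the order was opposite, with means of 0.541 and 0.720. FitHiChIP gave a difference of 0.855 bins in the 200 to under 500 kb class, beside 0.733 with MAPS.

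Loops of promoters were fewer after auxin on both sides, and more so downstream, into and past the gene, than upstream. In 6692 promoter bins whose genes all run in 1 direction, 51.1% of control loops ran downstream, that is the way the gene is transcribed (50.5 to 51.7), and 46.4% after auxin (45.6 to 47.3). The downstream share fell by 4.68 percentage points. The change was -4.89 points for genes on the plus strand and -4.48 for those on the minus strand. It was below 0 on 18 of 18 chromosomes with placed start sites, from -8.86 on chromosome 5 to -0.43 on chromosome 15. Of downstream control loops 23.7% were called again, and of upstream ones 26.4%. Of loops listed only after auxin 44.7% ran downstream.

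The change was largest close to the gene. For partners 20 to 90 kb away the downstream share was 51.2% in control and 40.4% after auxin, a change of -10.8 points. It was -5.50 at 100 to 190 kb, -3.95 at 200 to 490 kb and -1.82 at 500 to 1000 kb, where the intervals of both lists overlap. Genes of 20 to under 100 kb showed -7.66 points (48.2% to 40.6%), genes of 100 kb or longer -4.66 (65.1% to 60.4%) and those under 20 kb -2.04.

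Relative to control, the number of loops after auxin was lowest within the gene, but partner distance was not matched. At 20 to 90 kb, downstream partners within or past the gene numbered 1232 and 433 loops, and upstream ones 1174 and 639. Partners inside the gene's own body numbered 1447 and 586 loops, or 40.5% of the control number after auxin. Partners beyond the gene's end numbered 12542 and 6261 (49.9%), and those upstream 13374 and 7894 (59.0%). In genes of 100 kb or longer these ratios were 41.6%, 44.9% and 53.0%. The share of control loops called again did not follow this order: it was 23.6% within the gene, 23.7% beyond its end and 26.4% upstream, and in genes of 100 kb or longer 24.9%, 21.5% and 22.7%. In day 4 neural precursors, other libraries of the same line, the downstream share was 51.7% without auxin and 46.4% with it, a change of -5.29 points.

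**Figure D2:**
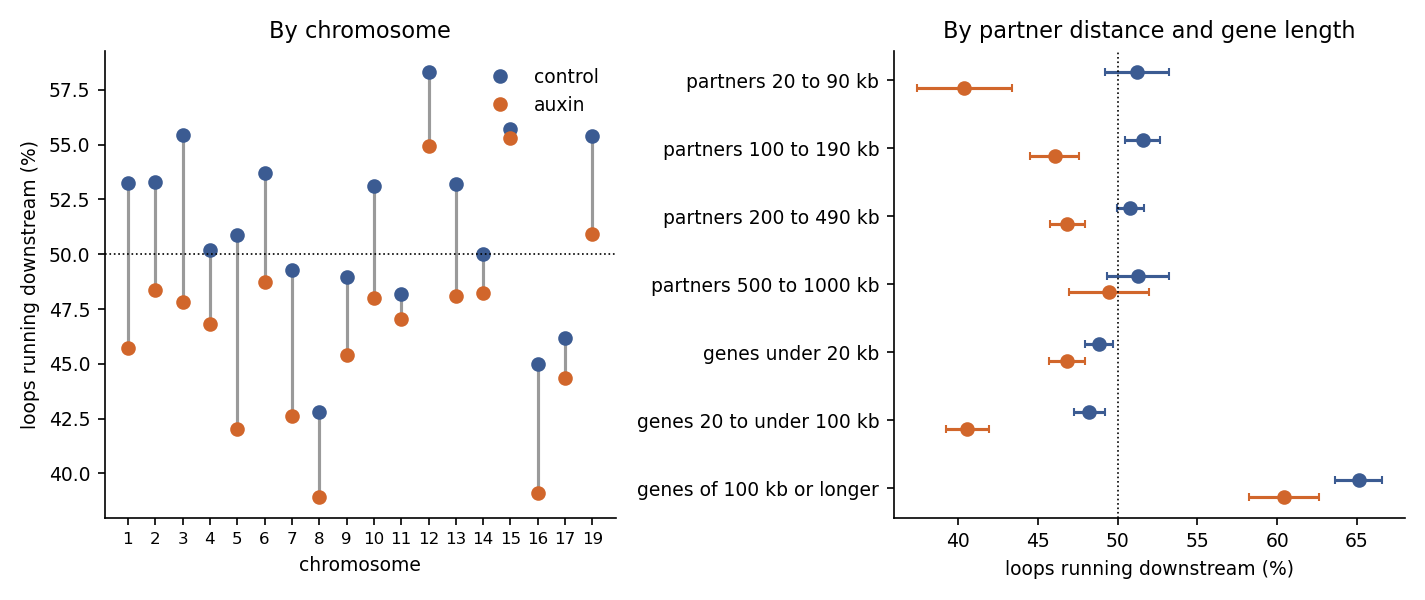
Percentage of loops at promoter bins that run downstream, control and auxin, per chromosome (left) and by partner distance and gene length with 95% exact intervals (right). The auxin value lies below the control value on all 18 chromosomes, and the gap narrows from -10.8 points at 20 to 90 kb to -1.82 at 500 to 1000 kb.

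Few anchors exchanged all their partners, but few kept all of them. Of 4065 peak bins with at least 3 loops in each list, 265 (6.52%, interval 5.78 to 7.32) had no partner bin in common, and 139 (3.42%) had none within 1 bin. The partner sets were identical at 22. The shared part of all partners of an anchor (Jaccard index) had a median of 0.286, with quartiles of 0.167 and 0.417. FitHiChIP left 2.30% without a common partner. Of 2491 anchors with all control partners on 1 side, 2118 stayed on that side, 349 gained the other side as well and 24 switched entirely.

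New partners mostly lay near old ones. Of 17060 partners added after auxin at anchors of both lists, 32.6% were the bin next to a control partner, the median gap was 30 kb, and 26.2% lay over 100 kb from any. The median partner distance of an anchor was larger after auxin at 2319, smaller at 1463 and equal at 283, with a median of 225 kb in control and 250 kb after auxin. The farthest partner did not move out in the same way, being farther at 1562 anchors and nearer at 1732, with a median of 360 kb in both lists.

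Named anchors came from 1048 promoter bins with at least 5 loops in each list, by the share of partners within 1 bin. The 8 lowest are given, and, of the 22 bins at which every partner had a match within 1 bin, the 8 with the most loops. Arhgap35, a GTPase-activating protein, gave the clearest switch of side. Its 7 control partners lay 90 to 150 kb to the left (toward Npas1, a neuronal transcription factor), and its 10 auxin partners 160 to 290 kb to the right, with Slc1a5, Prkd2, Dact3, Gng8 and Ptgir among the promoters there. FitHiChIP listed 4 and 6 loops there, none of them shared.

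The bin of Chchd10, a mitochondrial protein, and Mmp11, a matrix metalloproteinase, moved from 8 partners 190 to 400 kb to the left, over Ggt1, Ggt5 and Susd2, to 5 partners 240 to 320 kb to the right, over Prmt2 and S100b. Alk, a receptor tyrosine kinase of the nervous system, had 6 partners to the left and 5 to the right in control (140 to 200 kb on the right) and 10 after auxin, all on the right at 310 to 720 kb, among them the promoters of Lbh and Lclat1. FitHiChIP listed 1 and 3 loops at Alk. Tfap2a, a neural crest factor, had 12 partners to the left in control, and 2 to the left and 4 to the right after auxin, the latter near Smim13 at about 500 kb. FitHiChIP kept 2 pairs at Tfap2a, so its exchange was not complete there. Psen2, Elovl6, Cyp1b1 and the bin of Rnasek were the others with 0 or 1 shared pair.

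Every partner had a match within 1 bin at the following 8 anchors. Lhx1, a LIM homeobox factor of the head organizer and kidney, had 16 and 18 partners with 15 in common. Irx2 had 7 and 6 partners, all 6 auxin pairs being control pairs, and contacted Irx4, its cluster neighbour, and a bin 660 kb away at 16.5 and 11.9 times the expected number. Ptf1a, a factor of pancreas and cerebellum, kept 6 of 7, with the bin of Bmi1, a Polycomb subunit, among those 740 to 770 kb to the left. Sulf2, a heparan sulfate sulfatase, kept 15 of 17. Bcl2l1, which encodes the survival protein Bcl-xL, kept 13 of 15, with Id1 among its partners. Foxd2, Cdkn2c (with Dmrta2 and Rnf11) and the bin of Cog4 and Sf3b3 followed. These long contacts were called with and without CTCF depletion.

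**Figure D3:**
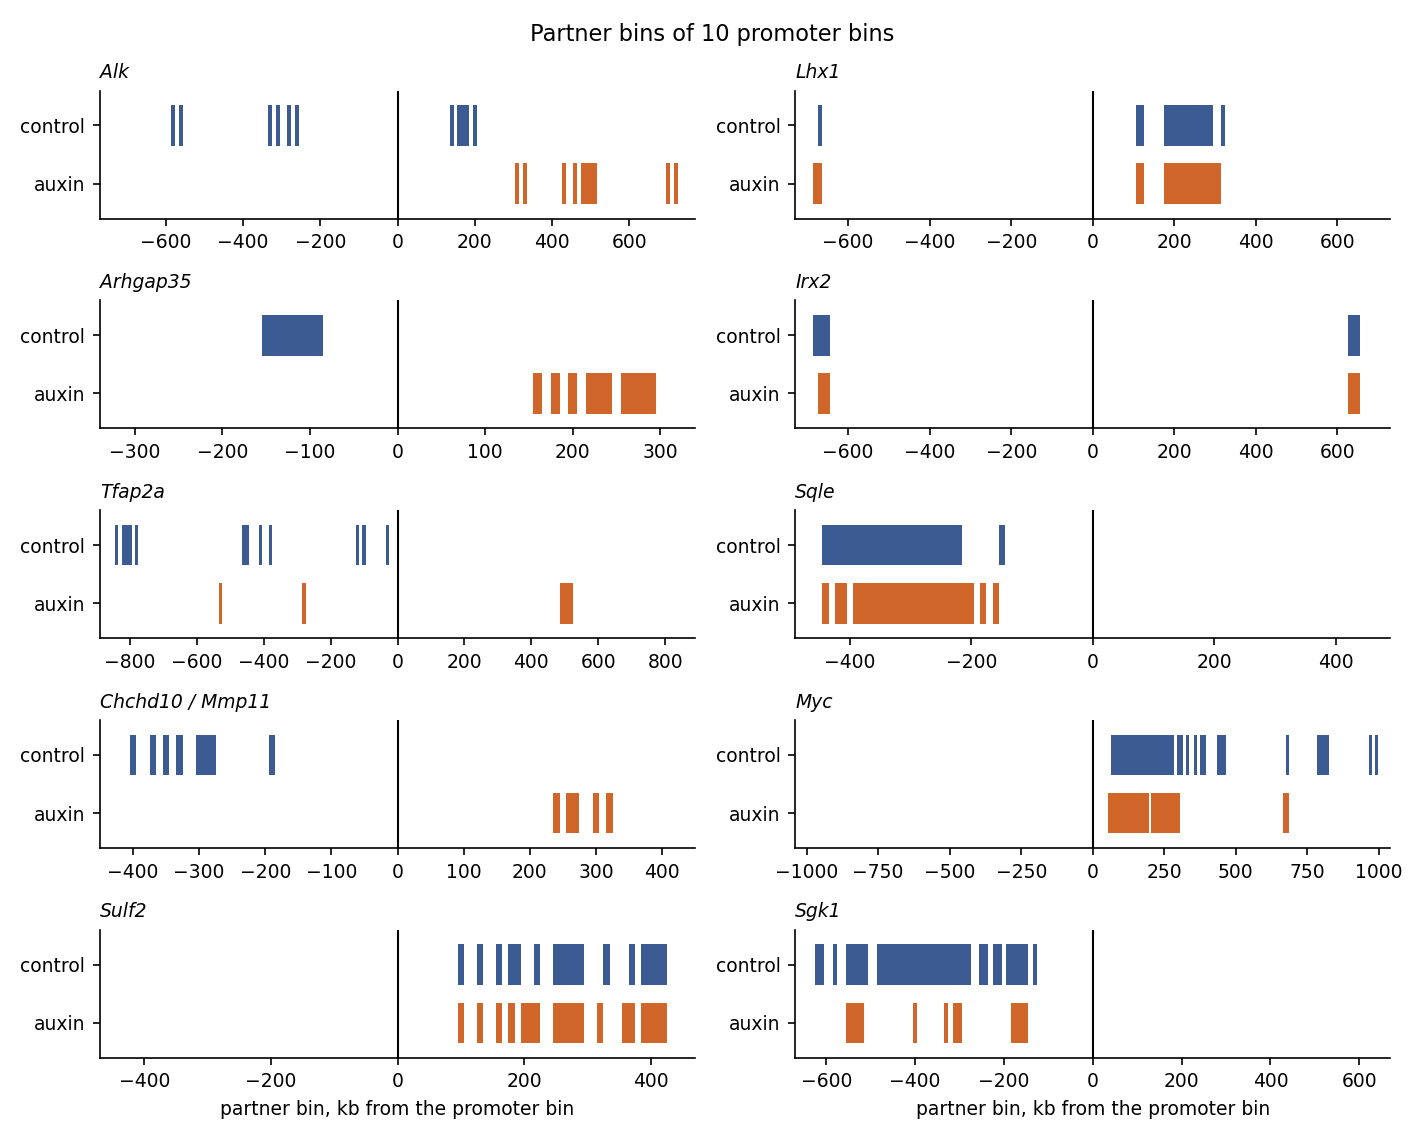
Partner bins (coloured blocks) of 10 promoter bins in control (upper line) and after auxin (lower line), as distance in kb from the promoter bin at 0, negative to lower coordinates. Arhgap35 and Chchd10/Mmp11 change sides, Sulf2, Lhx1 and Irx2 keep their partners, and the stripe of Sgk1 breaks up while those of Sqle and Myc persist.

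Stripes, runs of at least 5 adjacent partner bins on 1 side of an anchor, numbered 1937 in control and 546 after auxin. The auxin number was 28.2% of the control number, against 48.7% for loops as a whole. Loops within stripes made up 21.7% of the control list and 11.9% of the auxin list, and stripes of at least 100 kb numbered 196 and 29. The size of this difference depends on how the lists are cut. When the control list alone was shortened to its 27610 loops of lowest FDR (up to 1.08e-04), it held 721 stripes, of which the auxin number is 75.7%. With FDR under 1e-04 in both lists, stripes numbered 712 in control and 144 after auxin (20.2%). FitHiChIP gave 937 and 629 (67.1%). Of 1745 control anchor sides with a stripe, 340 had one after auxin (19.5%, interval 17.6 to 21.4).

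Long stripes were found again more often, but the measure favours them. Any auxin run of at least 5 bins at the same anchor and side counts, so a long stripe can lose many bins and still be found. An auxin stripe was found at 101 of 777 control stripes of 5 bins. The share was 17.5% for 6 to 7 bins, 35.4% for 8 to 9, 42.4% for 10 to 14 and 61.3% (42.2 to 78.2) for the 31 stripes of 15 to 27 bins. Single loops inside control stripes were called again in 41.0% of cases, against 17.8% outside. The inside loops were also stronger, with a median enrichment of 3.20 against 2.84. By stripe length, the share of loops called again ran from 38.3% at 5 bins to 59.4% at 15 to 27 bins. Of the 1531 control stripes without an auxin stripe at their anchor and side, 1162 (75.9%) held at least 1 loop called again and 369 (24.1%) held none.

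**Figure D4:**
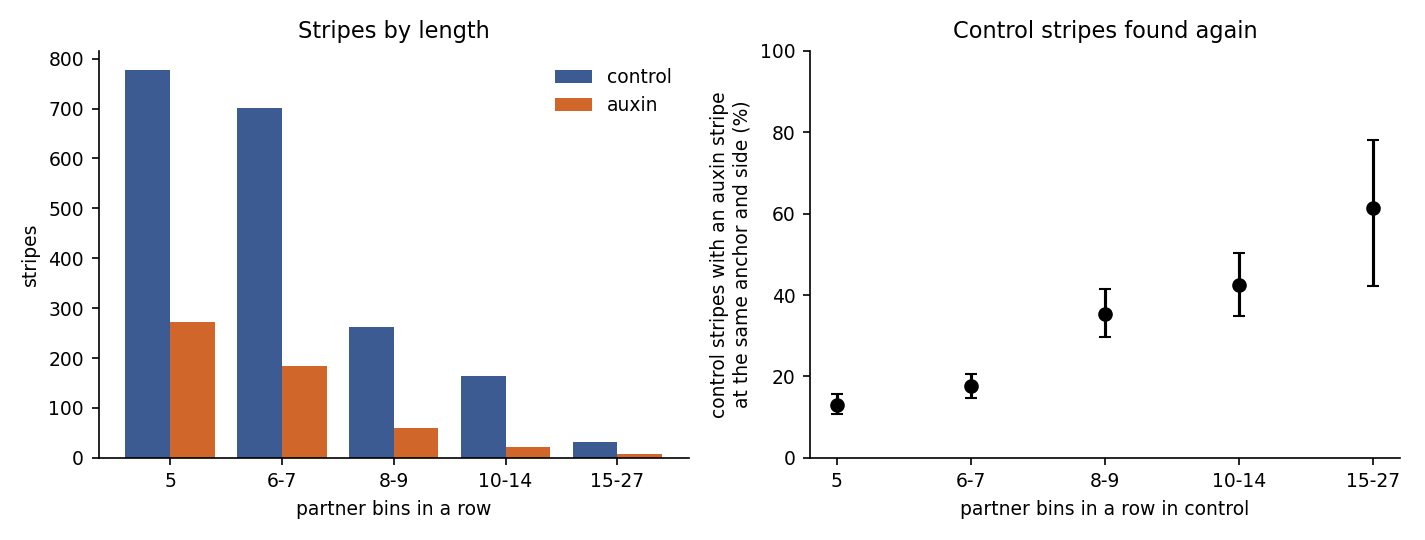
Left, number of stripes by length in 10 kb bins in control and after auxin. Right, percentage of control stripes with an auxin stripe of at least 5 bins at the same anchor and side, with 95% exact intervals. It rises with length to 61.3% at 15 to 27 bins, and longer stripes can lose more bins and still count.

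The longest control stripe, of 27 bins, ran left from the bin shared by Pitpnc1, a lipid transfer protein, and Psmd12, a proteasome subunit. After auxin 20 of these bins were called, in runs of at most 6. Vegfa, the endothelial growth factor, had a stripe of 24 bins, of which 17 were called again. Sqle, an enzyme of cholesterol synthesis, had 23 bins with 21 called again, and the auxin stripe of 20 bins was the longest of that list. Myc, the proto-oncogene, had 22 bins starting 70 kb to its right, over a stretch without a placed gene start, and 21 were called again. Most of the longest stripes thus kept most of their bins.

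Sgk1, a kinase of hormone and stress signalling, kept the fewest among the 8 longest at promoter bins. Of its 21 bins 4 were called again, and its total loops were 39 and 12. FitHiChIP gave 27 and 12 loops at its bin. Its short-range reads, those of its own bin that MAPS uses as a measure of pull-down, were 510 and 543. Kif26a, a kinesin, kept all 17 bins, and Ier5l 12 of 18. The stripe of 1600014C23Rik kept 16 of 17 and faces that of Vegfa, each passing over the other's promoter. Stripes of Nfkbia (15 bins), Lhx1 (14) and Timm22 (13) completed the 8 longest at promoter bins after auxin.

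Promoter bins as a whole lost loops unevenly. Of 8842 with loops, 5016 had them in both lists, 2904 in control only and 922 after auxin only. Relative to the list totals, 290 of 1816 bins with at least 10 loops were at least 2-fold lower (16.0%) and 426 at least 2-fold higher (23.5%). FitHiChIP gave the opposite order, with 11.9% lower and 9.22% higher. On this scale a bin with equal numbers in both lists counts as higher, and unscaled, 5983 promoter bins (67.7%) held fewer loops after auxin and 1975 (22.3%) more. Promoter bins with many control loops kept a larger share: 17.6% of loops were called again at bins with 1 to 4 loops, 24.5% at 5 to 9, 30.2% at 10 to 19 and 37.6% at 20 to 54. Short-range reads were higher after auxin in all 3 groups, with median log2 changes of 0.20 at the higher bins, 0.30 at the lower bins and 0.25 at the others. Their part in the calls was not tested.

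Over all promoter bins 25.3% of control loops were called again (24.8 to 25.7), and auxin loops numbered 54.9% of control loops. Of 29 gene classes 19 lay above this share, and 8 did so with an interval above it. FitHiChIP placed 7 of 29 above, so the ranking of classes depends on the caller. Its largest differences were at histone genes (39.0 points above, 463 control loops) and zinc finger genes (34.1 points above, 2086 control loops). These loops count in its value over all promoter bins, which was not computed without them. Classes differ in loops per bin, from 2.54 in control at histone genes to 14.4 at Hox genes, and the share rises with that number.

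Cell cycle genes had the largest share, 45.4% (35.8 to 55.2), with 108 control and 99 auxin loops. The cyclin D genes Ccnd1, Ccnd2 and Ccnd3 supplied 29 of its 49 loops called again, and without them the share was 32.3% (20.9 to 45.3), an interval that includes the share of all promoter bins. Ccnd2, cyclin D2, had 15 and 22 loops with 9 in common, and all 13 auxin loops of Ccnd1 were among its 22 control loops. In this class 5 of 8 bins with at least 10 loops were 2-fold higher relative to the lists and 0 lower, against 23.5% and 16.0% over all bins. Cytoplasmic ribosomal protein genes called 33.3% again and had 255 and 212 loops, with 10 of 20 bins higher and 1 lower. Rps27a had 10 and 17 loops, with 9 in common. Mitochondrial ribosomal protein genes stood at 25.4%, with 21 and 12 loops at Mrps23.

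Sox genes called 40.4% again (32.1 to 49.2), Fox genes 39.9%, Gata and Klf genes 38.8%, other homeobox genes 37.0% and Hox genes 33.7%. For Sox, Gata and Klf, and Hox genes FitHiChIP gave a share below that of all promoter bins, by -9.80, -2.07 and -1.02 points. Hox genes had 418 control and 207 auxin loops (49.5%, against 54.9% over all promoter bins), and 27 of 29 bins held fewer, against 67.7% of all promoter bins. Of the 26 Hox bins with at least 10 loops, 4 were 2-fold lower relative to the lists and 1 higher. Over all bins these shares were 16.0% and 23.5%. Hox bins lie close together in clusters and are not separate observations. Hoxb5 had 33 and 18, and Hoxb8 26 and 24. Sox2, a core factor of ESCs, had 12 and 13 loops with 5 in common, while Sox6 had 31 and 18. Gata6, a factor of primitive endoderm, had 4 and 15, all 4 control pairs included. T-box genes called 18.3% again, and Eomes, a mesendoderm factor, had 10 and 1.

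Ligands and adhesion genes had the lowest ratios. TGF-beta superfamily ligands had 125 control and 46 auxin loops (36.8%), with 26 and 0 at Tgfb3 and 16 and 9 at Inhbb, an activin subunit, where all 9 were control pairs. Cadherins had 46 and 16 (34.8%), and Cdh15 had 8 and 0. Ephrins and their receptors had 124 and 54 (43.5%), with 25 and 10 at Epha4. FGF ligands and receptors had 64 and 30. Fgfr2 had 21 and 2, and Fgf15, next to Ccnd1, had 24 and 15. Single bins weighed on these ratios: Tgfb3 held 26 of 125 control loops and Fgfr2 21 of 64. Ratios without them were not computed. The intervals of all 4 shares called again included that of all promoter bins.

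Clustered protocadherins, whose promoters are chosen in combinations by each neuron with the help of CTCF, had 257 and 218 loops (84.8%). Of their 24 bins with at least 10 loops, 12 were higher and 1 lower, against 23.5% and 16.0% over all bins. These bins lie in 1 region of chromosome 18 and are not separate observations. The bin of Pcdhb3 and Pcdhb4 had 12 and 19 loops with 6 in common, Pcdhb10 had 13 and 13 with 3, and Pcdhb21 had 21 and 6. With the control list shortened to the auxin length the share called again no longer exceeded that of all bins (a difference of -0.25 points). Replication-dependent histone genes had 66 and 75 loops, 113.6% of control. FitHiChIP had 463 control loops for this class. At the bin of H2ac13 it listed 30 and 25 loops, beside 16 and 7 with MAPS. At H2ac12 it listed 43 and 35, beside 5 and 7, so the increase was not seen at these bins with FitHiChIP. The genes of this class are near-identical copies, and contacts may have been assigned uncertainly among them.

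Pluripotency genes had few loops, 60 in control and 50 after auxin, with 20 in common (33.3%, 21.7 to 46.7). Mycn had 20 and 7 loops, and the class without it had 40 and 43. More loops after auxin were held by 10 of the 18 bins and fewer by 7, against 22.3% and 67.7% of all promoter bins. FitHiChIP did not give this order: among these genes it listed more loops after auxin only at Dppa5a, Nr5a2, Pou5f1 and Otx2. It listed fewer at most of the others, such as Zfp42 (6 and 3) and Lin28a (4 and 1). With FitHiChIP the share called again in this class lay below that of all promoter bins (a difference of -8.89 points). Klf4 had 4 and 2, Sall1 and Tdgf1 3 and 4 each, Nr5a2 3 and 2, and Prdm14 3 and 0. Utf1 had 2 and 4, Dppa5a 2 and 3, Otx2 0 and 2, and Klf2 1 and 1. Pou5f1, Fgf4, Lin28a and Zfp42 each had 1 and 2 loops, and Nanog, Tfcp2l1 and Dppa4 1 and 0. Differences of 1 to 3 loops in this class were not distinguishable from counting error. Genes of CTCF and cohesin had 28 and 20, with all 5 loops of Smc3, a cohesin subunit, called in both lists.

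**Figure D5:**
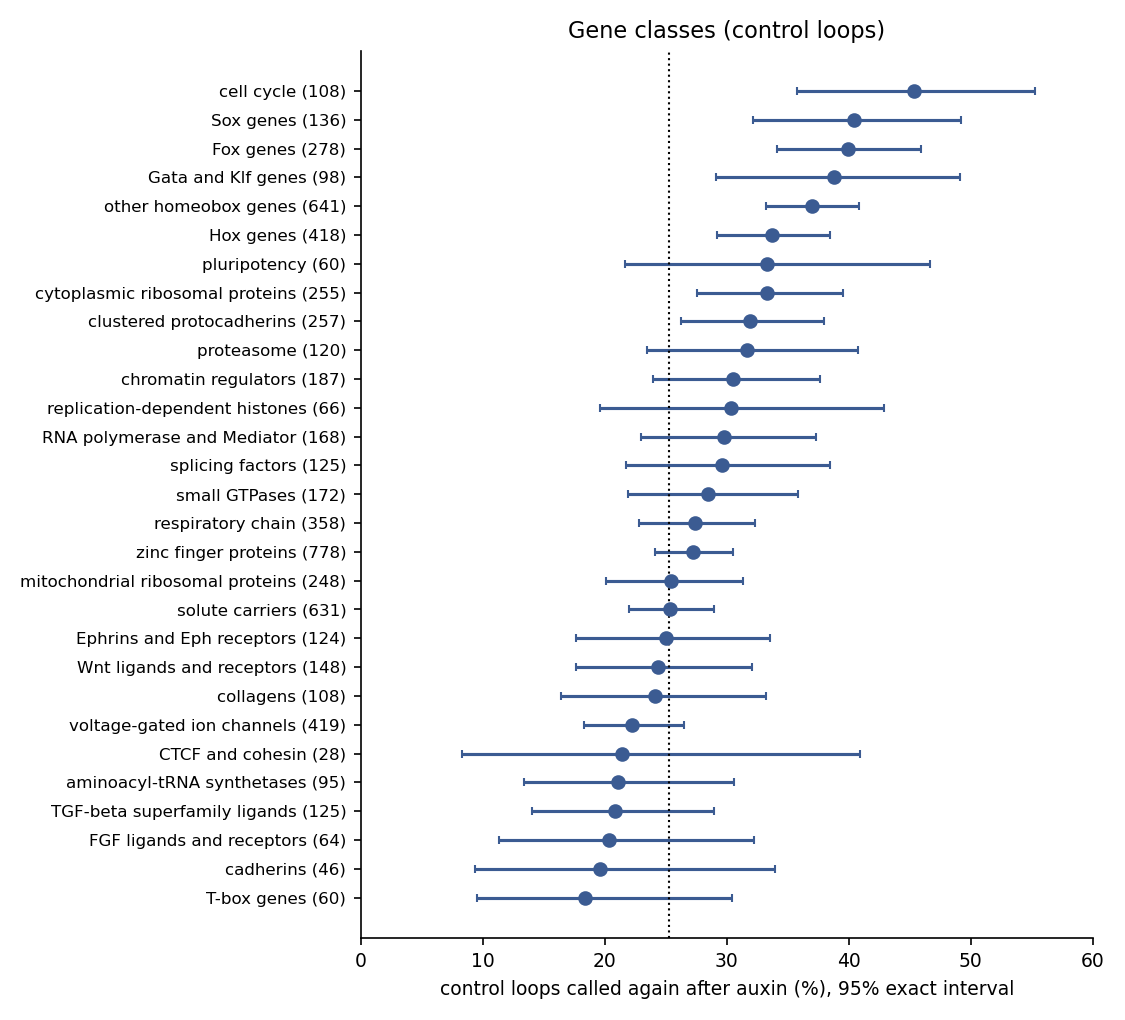
Percentage of control loops called again after auxin in 29 gene classes (number of control loops in brackets), with 95% exact intervals; the dotted line is the value over all promoter bins (25.3%). Cell cycle genes (45.4%) lie highest and T-box genes (18.3%) lowest.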

How the data were processed

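H3K4me3 PLAC-seq had been done on 14 samples, of which the 4 ESC samples were used, with the MAPS lists of the 4 neural precursor samples set beside them in places; the dCas9 samples were not analysed here. BWA and Picard were used with build mm10, per the submitters' processing notes, which give no versions. Per the file headers, a MAPS line holds the contact count, an expected signal, their ratio, an FDR (an adjusted p-value) and other columns for H3K4me3 peak flags and short-range reads. The deposited FitHiChIP lists hold contact counts, coverage, an expected signal, the fraction of contacts expected and a q-value. The depth is the expected value divided by that deposited fraction, the same whole number on every line. No source used here says whether samples were pooled.

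Gene starts came from RefSeq promoters of GRCm38.p6 (17491 of 21883 protein-coding genes). Others were placed where both ends shared a bin (887) or 1 end was a peak bin (1581), and 1924 were not placed. Chromosome 18 starts were not used for direction. Members and lists were chosen with earlier results of these data known. Named genes were the 10 lowest and 10 highest shared loops and the 8 longest stripes at promoter bins per list. They also included the 8 anchors with the lowest and 8 with the highest share of partners within 1 bin (ties by most loops). Further ones were 2 to 4 members per class by total loops, and every pluripotency gene with a loop. A few items that this rule or the partner lists name are not reported here. Alternatives changed the caller, thresholds, list length, and stripe and anchor definitions. Direction, crossed promoters and motif spellings were added after seeing the data. Measures were tested on simulated data. Python 3.11.15, pandas 2.3.3, numpy 2.4.6 and scipy 1.17.1 were used.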

Additional observations from a re-analysis of the deposited data

How the results depend on the processing

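No paired analysis was possible because each group had 1 list per caller and no column carries a replicate number. For the same reason no replicate could be left out. The median change at shared loops was -0.024 with FitHiChIP, -0.14 with at least 20 contacts, -0.15 with FDR under 1e-04 and -0.11 with counts alone, and stayed below 0 in all of these. Promoter bins lower by 2-fold made up 11.9% with FitHiChIP, 7.25% with at least 20 loops, 13.2% with the stricter FDR and 13.5% with the control list shortened to the auxin length, and those higher 9.22%, 19.3% (at least 20 loops) and 20.9% (shortened). With FitHiChIP more bins were lower than higher, the opposite of MAPS. Anchors without a common partner were 2.30% with FitHiChIP, 3.42% allowing 1 bin and 1.89% with at least 5 loops. Auxin stripes were 67.1% of control stripes with FitHiChIP and 75.7% with the shortened control, but 20.2% with the stricter FDR in both lists. They were 38.9% for 3 bins in a row, 19.4% for 8 and 33.8% with 1 missing bin allowed. Control stripes found again were 42.5% with FitHiChIP, 29.4% for 3 bins in a row, 11.7% for 8, 24.3% with 1 missing bin allowed, 34.9% with the shortened control and 14.2% with the stricter FDR. Classes above all promoter bins numbered 7 with FitHiChIP, where Hox (-1.02 points), Sox (-9.80) and Gata and Klf genes (-2.07) lay below; clustered protocadherins did so with the shortened control (-0.25). Of 87 class differences under other settings, 66 kept their direction and 21 did not. Without Mycn, pluripotency genes had 3 loops more after auxin than in control, against -10 with it. The downstream share changed by -3.68 points with FitHiChIP, -5.49 with the shortened control and -5.74 with the stricter FDR. The causes were not tested. A loop missing from a list may lie just under a threshold.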
